A study of Homo sapiens with 41 samples.

Results

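The comparison described here is that of RNA polymerase II (PolII) occupancy in cells carrying a hairpin against HDAC6 (shHDAC6, 2 samples) and cells carrying a control hairpin (shCtrl, 2 samples), 4 of the 41 samples of the study. The samples were chosen by their titles, and each had a peak list made by the authors. All 4 are labelled as MDA-MB231, a human triple-negative breast cancer line, were grown in the same medium, and were profiled by ChIP from 100000 cells with a mouse monoclonal antibody (4H8) to the C-terminal domain of Rpb1, the largest PolII subunit. The labels mention a drug, Nexturastat A (NextA, an HDAC6 inhibitor), for the study as a whole, and the titles give it to neither hairpin group. They give neither the time after knockdown nor whether replicates were separate cultures, so each p-value reflects only how far these lists spread, possibly for technical reasons alone. Side measures below come from 4 PolII samples without a hairpin (2 NextA, given 5 uM for 2 days, and 2 Ctrl), 6 ATAC-seq samples of the hairpin lines (3 shHDAC6 and 3 shCtrl) and 4 HDAC6 profiles of Ctrl cells (2 by ChIP and 2 by CUT&Tag).

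PolII starts at promoters, pauses shortly downstream, and is then released into the gene body, where it elongates until it passes the polyadenylation site and terminates. A ChIP peak that ends near the start of a gene therefore marks initiating or paused polymerase, and a peak that runs on through the gene marks polymerase along the transcribed unit. HDAC6 is a largely cytoplasmic deacetylase whose best studied substrate is alpha-tubulin.

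The cell label was checked before the comparison. CDKN2A and CDKN2B, tumour suppressor genes in a stretch of 9p21 that MDA-MB231 is known to have lost, had promoter peaks in all 4 lists. At CDKN2A the peaks stood at the 87.8th and 90.3rd percentile of the fold in the shHDAC6 lists and at the 90.7th and 89.7th in the shCtrl lists, and at CDKN2B at the 87.0th and 86.0th against the 91.2nd and 90.5th. The first NextA and first Ctrl lists had no peak at either promoter. VIM, which encodes vimentin and is high in MDA-MB231, had a promoter peak above the 96th percentile in all 4 lists. TGFBI, S100A6, KRT7 and KRT19 had none in the 4 hairpin lists and had one in all 4 NextA and Ctrl lists. Of 28 mesenchymal and invasion genes, 26 and 25 had a promoter peak in shHDAC6 and 24 and 23 in shCtrl. In NextA 24 and 27 of them had one, and in Ctrl 22 and 27. Of 18 basal markers each hairpin list held 7, against 12 and 10 in NextA and 12 and 10 in Ctrl. Of 23 luminal markers the shHDAC6 lists held 9 and 8 and the shCtrl lists 9 and 9. The NextA lists held 14 and 15 of these and the Ctrl lists 11 and 14. Of 20 neuron markers, 9 and 9 had a promoter peak in the shHDAC6 lists and 10 and 10 in the shCtrl lists, against 4 and 11 in the NextA lists and 4 and 14 in the Ctrl lists. NEFL, a neurofilament gene, was at the 99.8th and 99.8th percentile in shHDAC6 and at the 88.8th and 88.4th in shCtrl. Of 26 leukocyte markers, 5 and 5 had a peak in shHDAC6 and 4 and 4 in shCtrl, and PTPRC had none. The hairpin lists thus go against their cell label at 9p21, in both groups alike, and the samples are called by their hairpin below.

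HDAC6 itself, the targeted gene (chrX:48801398-48824982), kept a PolII peak at its promoter in every list. Its width was 1747 and 1695 bp in shHDAC6 and 1682 and 1605 bp in shCtrl, a log2 difference of 0.07 ± 0.04 (SE) that did not pass the test (limma, adjusted p = 0.436). Its fold ranked higher in shHDAC6: among the promoters occupied in all 4 lists it stood at the 57.4th and 46.6th percentile in shHDAC6 and at the 24.7th and 11.8th in shCtrl. A hairpin acts on the transcript, so occupancy at this promoter does not measure the knockdown.

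The shHDAC6 lists covered less of the genome than the shCtrl lists, and more of what they covered lay at promoters. The shHDAC6 lists held 19519 and 19556 peaks over 28.3 and 27.6 Mb, against 21570 and 21327 peaks over 32.0 and 30.4 Mb in shCtrl. Peaks of at least 5 kb numbered 276 and 257 in shHDAC6 and 455 and 357 in shCtrl, and those of at least 10 kb numbered 30 and 29 against 67 and 44. Of the covered bases, 52.6% and 53.1% lay within 1 kb of a gene start in shHDAC6, against 45.9% and 47.4% in shCtrl. The groups did not overlap in any of these measures, with an exact two-sided permutation p of 0.33, the smallest that 2 against 2 lists allow. Lists of the same hairpin shared more bases than lists of different hairpins (Jaccard index 0.804 against 0.678, exact one-sided p = 0.33).

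The lists also differed in how far they reach into weak peaks. All 4 held peaks down to a −log10 p of 2.00. The shHDAC6 lists kept 72.7% and 75.1% of the caller's peak numbering and the shCtrl lists 56.6% and 50.6%, by the gaps in that numbering. A −log10 q of at least 5 was reached by 63.8% and 64.0% of shHDAC6 peaks, against 53.3% and 54.4% of shCtrl peaks. With weaker peaks left out at that floor, the order of the peak numbers turned round, to 12451 and 12524 in shHDAC6 and 11500 and 11602 in shCtrl. So did that of the covered length, with a difference of means of 1.05 Mb at the floor against -3.25 Mb without it, and the difference in the share of bases at promoters was 1.06 in place of 6.16 percentage points. The order of the broad peaks of at least 5 kb did not, with a difference of means of -32.5 peaks at the floor against -139.5 peaks without it.

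Along genes, with all listed peaks counted, weak ones included, the lines lay close together at the start and apart beyond it. Over 9463 genes with a body of at least 10 kb, 300 bp past the start was covered in 92.7% and 92.4% of genes in shHDAC6 and in 92.3% and 91.6% in shCtrl. At 3500 bp past the start the shares were 1.90% and 1.88% in shHDAC6 and 2.83% and 2.55% in shCtrl. In the middle of the body, at 57.5% of its length, they were 1.11% and 1.06% against 2.06% and 1.83%. At 1100 bp past the gene end, where terminating polymerase collects, they were 5.67% and 5.27% against 7.70% and 7.16%. Both shHDAC6 lists were below both shCtrl lists at these last 3 places. At 500 bp past the start they were above, at 76.1% and 75.5% against 73.8% and 72.7%. No profile is given at the −log10 q floor.

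**Figure D1:**
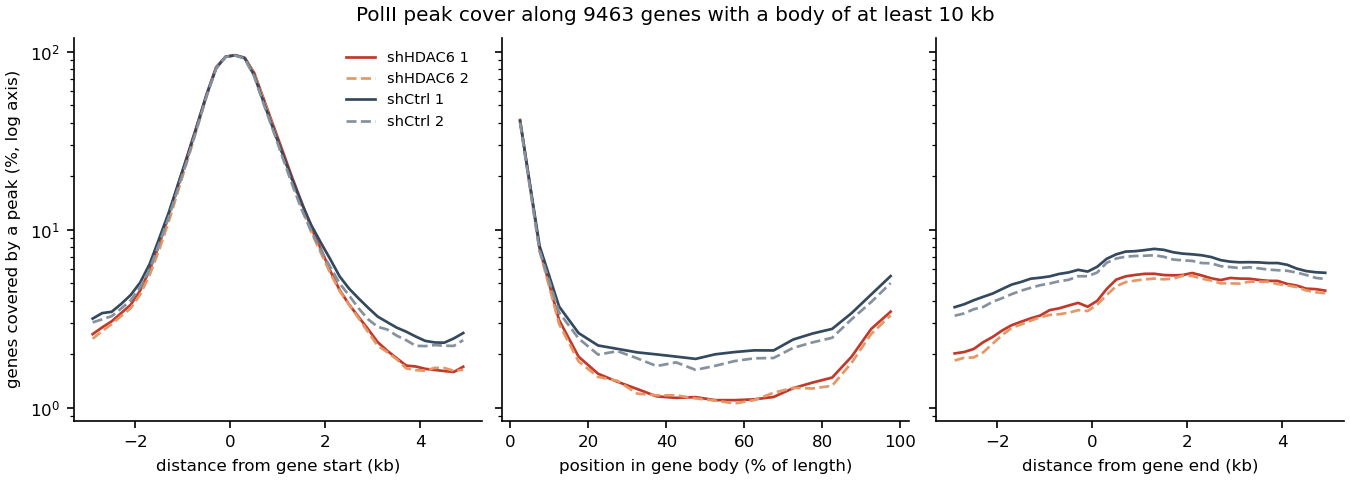
Share of 9463 genes covered by a PolII peak (y axis, percent, log scale) by distance from the gene start in kb, by position in the body in percent of its length and by distance from the gene end in kb, 1 line per list. All listed peaks are counted, weak ones included. The lines lie close together at the start and the shHDAC6 lists run below the shCtrl lists in the body (1.11% and 1.06% against 2.06% and 1.83% at 57.5% of the length) and past the end.

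At promoters, presence hardly changed. Of 12986 promoters (1 kb either side of the gene start) with a peak in at least 1 list, 12284 had a peak in all 4. A further 115 had one in both shCtrl lists and no shHDAC6 list (0.886%, called lost) and 160 had one in both shHDAC6 lists and no shCtrl list (1.23%, called gained). At the −log10 q floor of 5 the counts were 73 lost and 576 gained, and with each list held to the same covered length they were 43 and 281. The lost and gained promoters were weak ones: their median percentile in the lists that had them was 17.6 for lost and 13.7 for gained, against 68.4 for promoters in all 4 lists.

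Some of these promoters had not lost the peak but its edge. For 13 of the 115 lost promoters, the shCtrl peak that reached the window was overlapped by a peak in both shHDAC6 lists, and for 98 by a peak in neither. For the 160 gained promoters the corresponding numbers in shCtrl were 10 and 148. With genes that have only a LOC symbol passed over, 6 of the 10 lost promoters of highest percentile were of the edge kind, and 4 of the 10 gained. Of the LOC genes passed over, LOC124902211 had the highest mean percentile of all gained promoters, 71.3, and LOC124902601 had 38.3, and both were of the edge kind. ZNF621, a zinc finger gene (chr3:40523106-40539782, its start taken as the end with more peaks), led the lost promoters at the 96.7th and 97.9th percentile of the shCtrl lists. Its peak ran from 241 to 2335 bp and from 266 to 2322 bp past the gene start in shCtrl, and from 1276 to 2337 bp and from 1280 to 2280 bp in shHDAC6. LIN28A, SSMEM1, PCOLCE, CFB and GPBAR1 were of the same kind, as were BEST4, LCN12, LFNG and TMC8 among the gained. LFNG, which encodes a glycosyltransferase that modifies Notch, had promoter peaks of 1594 and 1634 bp in shHDAC6, and its body coverage was 15.1% and 15.2% against 7.87% and 7.37% in shCtrl.

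The promoters without any overlapping peak in the other line were modest in strength. VPS41, a subunit of the HOPS complex that tethers vesicles to lysosomes, had peaks of 504 and 354 bp in shCtrl, at the 63.6th and 38.4th percentile, and the nearest shHDAC6 peaks lay 276465 and 276501 bp away. C2orf78, THEMIS2 and PGM5 completed the lost ones of the leading 10. ZNF136 and ZNF230, both zinc finger genes of chromosome 19, had shHDAC6 peaks of 712 and 673 bp and of 754 and 734 bp, and none in shCtrl. EVI5L, TNFAIP8L3 and PAK5, a p21-activated kinase gene, were gained likewise. CCZ1 was as well, but it has a near-identical copy, so its reads may not be its own. Of these 6 gained promoters, ZNF136, ZNF230, EVI5L and CCZ1 had a PolII peak in both Ctrl and both NextA lists.

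Among genes of the lists, IL6, which encodes an inflammatory cytokine, was lost: its shCtrl peaks were 397 and 355 bp wide at the 15.8th and 28.6th percentile. MX1, an interferon-induced GTPase gene, was lost at the 9.24th and 4.02nd percentile of the shCtrl lists. CD44, which encodes the hyaluronan receptor, was gained, with shHDAC6 peaks of 657 and 603 bp at the 2.54th and 7.54th percentile. IFIH1, an RNA sensor gene, was gained at the 14.3rd and 23.2nd percentile of the shHDAC6 lists. All 4 promoters lie in the lower part of the lists that hold them, and all had a peak in both NextA lists. CD44 had one in both Ctrl lists as well, of 1479 and 886 bp.

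Away from promoters, PolII regions were more often lost than gained. Merging the 4 lists gave 25349 regions, of which 1996 (7.87%) were lost and 842 (3.32%) gained. Inside genes and away from any promoter, 1396 of 8712 regions (16.0%) were lost and 432 (4.96%) gained. Outside protein-coding genes 491 of 5158 (9.52%) were lost and 259 (5.02%) gained, and at promoters 109 of 11479 (0.950%) and 151 (1.32%). The lost intragenic regions were short, with a median of 688.5 bp, and 82.7% of them had an ATAC peak in none of the 6 lists, against 69.4% of the gained intragenic regions, 29.7% of those present in all 4 PolII lists and 65.1% of all intragenic regions. The order turned round without the weaker peaks: at the −log10 q floor of 5 there were 196 lost and 879 gained regions, and with equal covered length 668 and 1351.

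**Figure D2:**
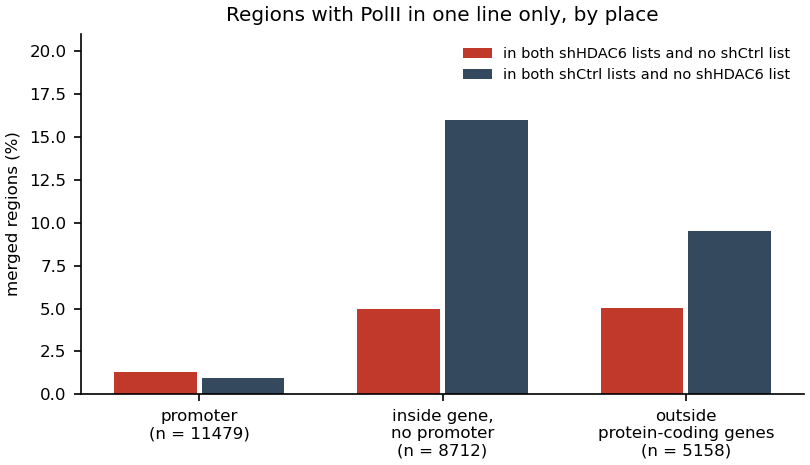
Percent of merged PolII regions (y axis) with a peak in both shHDAC6 lists and no shCtrl list, left bars, and in both shCtrl lists and no shHDAC6 list, right bars, by place. The largest share is that of intragenic regions without a promoter held by shCtrl alone, 16.0%, against 4.96% held by shHDAC6 alone.

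Promoter peaks were about as wide in both lines. Over the 12284 promoters with a peak in all 4 lists the median log2 difference in summed peak width was 0.01. In limma with Benjamini-Hochberg adjustment, 541 promoters (4.40%) had a wider peak in shHDAC6 and 511 (4.16%) a narrower one. Leaving out any single list left 0 calls in either direction, with 2727 to 3199 promoters at an unadjusted p under 0.05. FANCM, a DNA helicase gene of the Fanconi anaemia pathway, had 3092 and 3050 bp in shHDAC6 against 438 and 488 bp in shCtrl. VSTM2B had 4487 and 4733 bp against 725 and 759 bp. ATP5ME and MYL5 share a promoter peak, which measured 1900 and 1883 bp in shHDAC6 and 11275 and 9868 bp in shCtrl. CMIP fell to 746 and 718 bp in shHDAC6, against 4484 and 4470 bp in shCtrl, where the long peaks were weak, with a −log10 q of 0.67 and 0.99. At ICAM4, RNASE4 and DUS1L the change lay in how peaks were split: joining peaks under 1 kb apart left log2 differences of -0.17, -0.01 and -0.10 in place of 2.59, -2.53 and -2.56. In windows of 3 kb FANCM had a log2 difference of 0.87 in place of 2.73 and did not pass, and joining peaks left VSTM2B 1.35 in place of 2.64.

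PolII covered less of the gene bodies in shHDAC6. Coverage was the percent of the body, from 1 kb inside the gene start to the gene end, that lay under peaks, and 2536 genes with a body of at least 2 kb and a mean of at least 5% were tested. It was higher in shHDAC6 at 83 genes (3.27%) and lower at 319 (12.6%), and the median difference was -3.30 percentage points. Both shHDAC6 lists were below both shCtrl lists at 1253 genes (49.4%) and above them at 400 (15.8%). Genes with at least 50% of the body covered numbered 292 and 260 in shHDAC6 and 467 and 399 in shCtrl. The share called lower was 13.8% for bodies of 2 to 5 kb, 13.5% for bodies of 20 to 50 kb and 8.14% for the 86 bodies of at least 50 kb.

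The tilt towards lower coverage shrank when weaker peaks were left out. At the −log10 q floor of 5, 104 genes were higher and 121 lower, with a median difference of -0.05 points. With each list held to the same covered length, 107 were higher and 149 lower, with a median of -0.67 points. Of the 319 lower genes, 132 could be tested at the floor, where 60 were called lower and 107 had the same sign. Of the 83 higher genes, 42 could be tested, of which 33 were called higher and 39 had the same sign. Leaving out an shHDAC6 list left 34 or 38 lower genes and 23 or 30 higher ones.

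**Figure D3:**
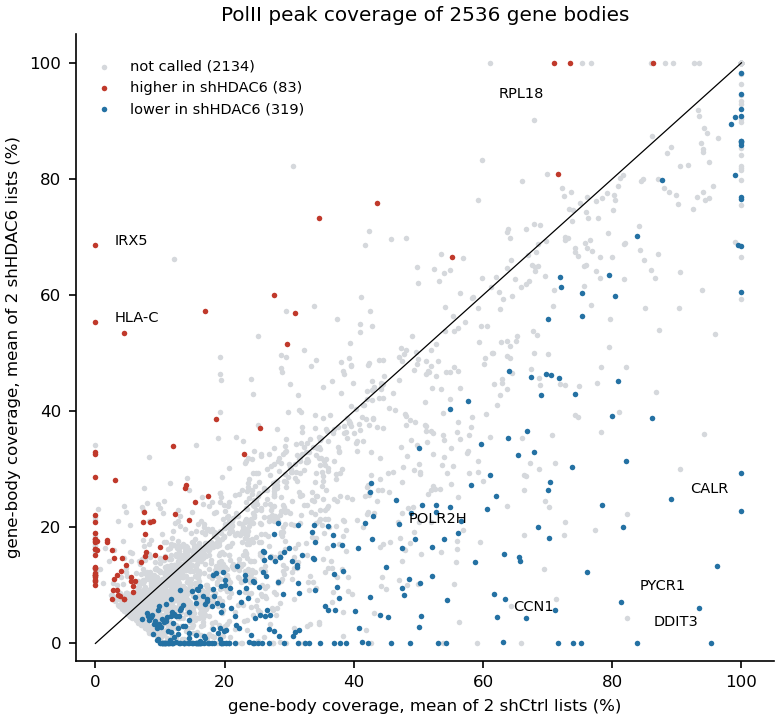
Gene-body coverage of 2536 genes, mean of the 2 shHDAC6 lists (y axis, percent) against mean of the 2 shCtrl lists (x axis, percent), with the line of equality. The 319 genes called lower lie below the line and the 83 called higher above it, with DDIT3, PYCR1 and CALR at the lower right and IRX5 and HLA-C at the left.

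DDIT3 had the largest loss of body coverage. It encodes CHOP, a stress-induced transcription factor that acts downstream of ATF4 in the integrated stress response and in the response to misfolded protein in the endoplasmic reticulum. Coverage of its body (gene at chr12:57516588-57520517, minus strand) was 0% and 0% in shHDAC6 and 97.4% and 93.2% in shCtrl. The difference was -95.3 ± 2.44 points (SE), with a limma adjusted p of 0.00505. The promoter peak itself remained: it ran from -2730 to 763 bp and from -2740 to 736 bp around the gene start in shHDAC6, and from -2790 to 3854 bp and from -2796 to 3729 bp in shCtrl. The upstream edges thus lay close together in all 4 lists, while the downstream edges lay far apart between the lines. The difference was as large at the −log10 q floor, and without either shHDAC6 list the adjusted p was 0.068 and 0.062. The start of 1 neighbouring gene lies in or near the body.

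PYCR1 and CALR differed likewise. PYCR1 encodes the enzyme of the last step of proline synthesis and is a known ATF4 target; its start, too, was the end with more peaks. Its coverage was 12.3% and 0% in shHDAC6 and 92.7% and 94.2% in shCtrl, a difference of -87.3 ± 5.45 points (limma adjusted p = 0.0136). Without either shCtrl list its adjusted p was 0.0871 and 0.0798. CALR encodes calreticulin, a calcium-binding chaperone of the endoplasmic reticulum. Its coverage was 24.6% and 21.2% in shHDAC6 and 100% and 99.9% in shCtrl, a difference of -77.1 ± 1.85 points (adjusted p = 0.00505), and it passed without any single list (0.011 to 0.041). In a limma fit of all 8 PolII lists its adjusted p was 0.274. In shHDAC6 a promoter peak of 2537 or 2429 bp was followed by a weak peak of 1200 or 1033 bp at the gene end, with a fold of 2.53 and 2.79. In shCtrl a peak of 9615 or 7481 bp ran from the promoter through the gene. Beyond the gene end lay a strong peak of 1310 and 1443 bp in shHDAC6 (fold 8.01 and 7.52) and of 1476 bp in shCtrl 2 (fold 9.52), and in shCtrl 1 the long peak ran over that place.

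The promoters of DDIT3 and CALR are shown because these genes lost body coverage while their promoter peaks remained. Each run gives 250 bases before the RefSeq gene start and 50 from it on, 5′ to 3′ on the gene's own strand (GRCh38.p14), at chr12:57520468-57520767 for DDIT3 (minus strand) and at chr19:12938359-12938658 for CALR (plus strand). Capitals mark matches on either strand to the TATA box TATAAA, the GC box GGGCGG, the CCAAT box CCAAT, the AP-1 site TGANTCA, the TEAD site GGAATG, the NRF1 site, the C/EBP-ATF element TGATGNAA and the ER stress response element, which pairs a CCAAT box with a spaced CCACG. The last 2 motifs and the CALR promoter were added after values were seen.
DDIT3: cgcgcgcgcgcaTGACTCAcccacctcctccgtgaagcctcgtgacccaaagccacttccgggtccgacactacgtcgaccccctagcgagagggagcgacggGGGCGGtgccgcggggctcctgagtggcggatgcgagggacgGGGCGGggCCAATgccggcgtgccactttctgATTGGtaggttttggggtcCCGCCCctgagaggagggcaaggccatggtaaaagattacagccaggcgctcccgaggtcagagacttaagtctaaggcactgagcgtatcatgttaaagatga
CALR: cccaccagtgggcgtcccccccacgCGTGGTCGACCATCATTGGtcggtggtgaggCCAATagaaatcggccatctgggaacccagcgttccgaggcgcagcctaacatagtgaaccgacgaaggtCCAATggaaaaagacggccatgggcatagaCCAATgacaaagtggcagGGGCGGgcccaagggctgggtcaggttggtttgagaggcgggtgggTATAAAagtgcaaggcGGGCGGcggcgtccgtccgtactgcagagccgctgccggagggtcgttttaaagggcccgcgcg
In the DDIT3 promoter 3 GC boxes, 2 CCAAT boxes and an AP-1 match were found. Only exact letters were counted, so a near match to any of the motifs would not be marked. The CALR promoter held a TATA box, 2 GC boxes, 4 CCAAT boxes and a match to the ER stress response element on the opposite strand, which overlaps a CCAAT box. Of 15812 promoters of the same length, 59.3% held the GC box letters, 36.2% CCAAT, 9.70% TATAAA, 5.59% the AP-1 letters, 11.7% GGAATG, 8.73% the NRF1 site, 2.42% TGATGNAA and 0.126% those of the ER stress response element.

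The other genes of largest loss cover varied roles. RPL24, a protein of the large ribosomal subunit, was at 1.99% and 24.6% in shHDAC6 against 100% and 92.5% in shCtrl (difference -83.0 ± 10.1 points, adjusted p = 0.0365). POLR1G, a subunit of RNA polymerase I, was at 0% and 0% against 70.8% and 96.8%. FLAD1, the FAD synthase gene, was at 4.86% and 9.24% against 86.9% and 75.9%. EFEMP2, which encodes the extracellular matrix protein fibulin-4, was at 0% and 0% against 74.4% and 73.6%, and DDX41, an RNA helicase gene, at 0% and 0% against 70.9% and 72.2%. MEA1 was at 0% and 0% against 72.9% and 77.4%, and MYL5, a myosin light chain gene, at 24.4% and 34.1% against 100% and 100%. Of the 10, DDIT3, PYCR1, RPL24 and CALR were called at the −log10 q floor as well, and the other 6 had too little coverage left to be tested there. At equal covered length FLAD1 had a difference of -10.6 points (limma adjusted p = 0.092) and DDX41 one of -36.1 points (adjusted p = 0.545), and at equal list length FLAD1 had -53.7 points (adjusted p = 0.277). CALR alone of the 10 passed limma without each single list in turn.

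**Figure D4:**
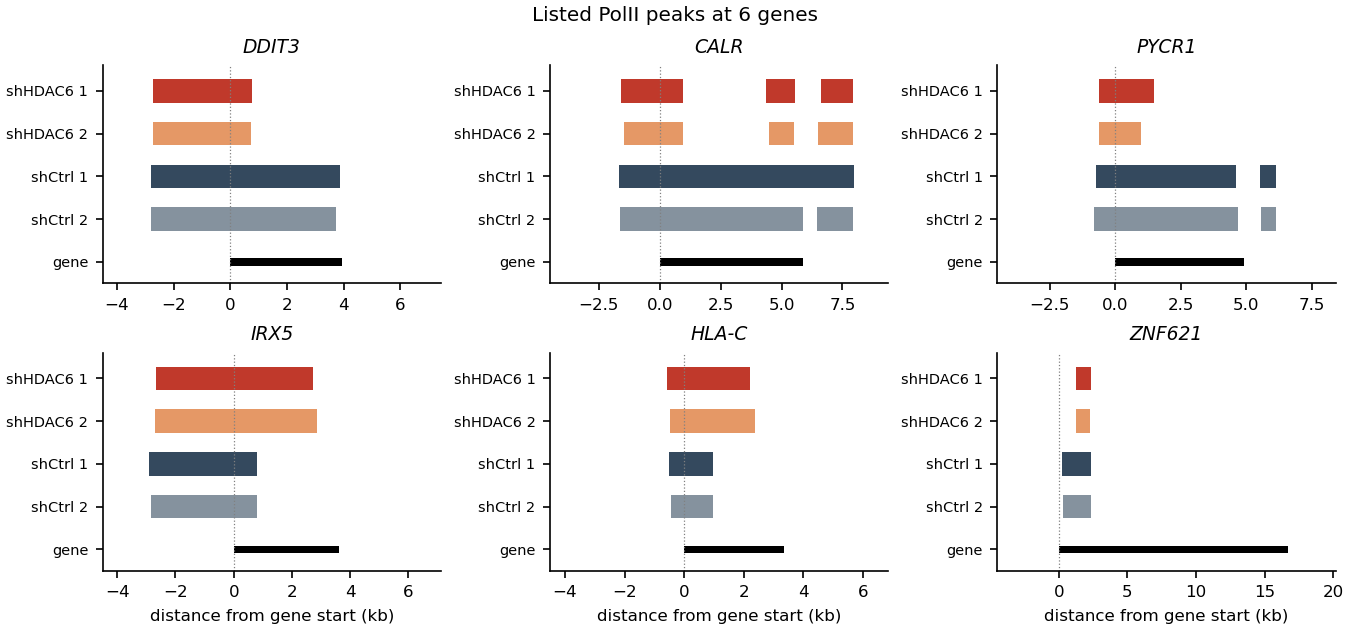
Listed PolII peaks (bars) at 6 genes in the 2 shHDAC6 lists (upper rows) and the 2 shCtrl lists (lower rows), by distance from the gene start in kb, with the gene as a black bar. At DDIT3, CALR and PYCR1 the shCtrl peaks run through the gene and the shHDAC6 promoter peaks stop early, at IRX5 and HLA-C the shHDAC6 peaks reach further, and at ZNF621 the near edge of the peak is shifted.

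Higher coverage was led by IRX5 and HLA-C. IRX5, an Iroquois homeobox transcription factor gene (chr16:54930865-54934485, its start taken as the end with more peaks), was at 65.9% and 71.4% in shHDAC6 and 0% and 0% in shCtrl, a difference of 68.6 ± 2.80 points (adjusted p = 0.00768). HLA-C encodes a heavy chain of the class I complex that presents peptides to T cells (chr6:31268749-31272092, minus strand). Its coverage was 52.2% and 58.4% in shHDAC6 and 0% and 0% in shCtrl, a difference of 55.3 ± 2.90 points (adjusted p = 0.0104). The HLA-C peak ended 2223 and 2368 bp past the gene start in shHDAC6 and 974 and 969 bp past it in shCtrl. Its fold ranked lower in shHDAC6, at the 61.0th and 59.6th percentile of common promoters against the 89.7th and 88.2nd. Class I genes resemble each other closely, so reads may be split between copies.

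The HLA-C promoter is shown for the same motifs (chr6:31272043-31272342, minus strand, GRCh38.p14), because its peak was the longer one in shHDAC6.
HLA-C: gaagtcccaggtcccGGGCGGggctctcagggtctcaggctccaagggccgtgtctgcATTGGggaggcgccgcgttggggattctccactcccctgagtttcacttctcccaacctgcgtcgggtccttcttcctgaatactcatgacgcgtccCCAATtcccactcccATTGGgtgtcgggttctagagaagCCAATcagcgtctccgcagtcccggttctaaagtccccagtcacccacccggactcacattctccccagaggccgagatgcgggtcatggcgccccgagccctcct
It held a GC box and 4 CCAAT boxes and no match to the other letters searched.

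The remaining genes of largest gain ranged from developmental regulators to metabolic genes. HEY1, a Notch target that encodes a transcriptional repressor, was at 59.4% and 60.7% in shHDAC6 and 28.2% and 27.0% in shCtrl (difference 32.4 ± 1.84 points, adjusted p = 0.0121). MEX3B, which encodes an RNA-binding protein, was at 49.0% and 58.1% against 8.76% and 0%. FXYD1, a regulator of the sodium pump, was at 57.5% and 57.1% against 18.5% and 15.3%. CORO1A, which encodes an actin-binding coronin, was at 73.6% and 78.1% against 47.5% and 39.6%. FXYD1 had no promoter peak. TMEM205 was at 35.4% and 30.4% against 0% and 0%, and ZBTB22 at 100% and 100% against 70.7% and 71.3%. PRELID1, which encodes a lipid transfer protein of mitochondria, was at 74.7% and 71.7% against 34.9% and 34.5%, but its difference was -34.7 points at the −log10 q floor. IRX5, HLA-C, MEX3B and HEY1 were called higher at the floor as well. ZBTB22 alone of the genes named here passed limma without each single list in turn, and CORO1A did not pass at equal covered length (56.1 points, adjusted p = 0.203).

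**Figure D5:**
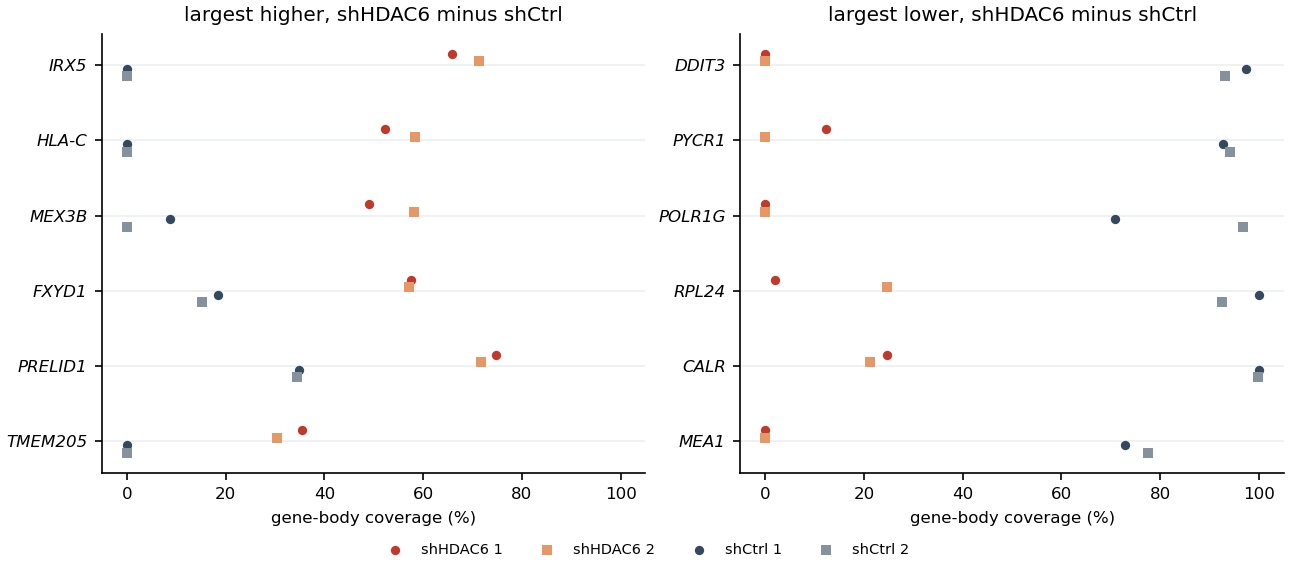
Gene-body coverage in percent (x axis) of the 6 genes with the largest higher (left) and the 6 with the largest lower coverage (right) among those called, 1 point per list. In every gene the 2 shHDAC6 points lie apart from the 2 shCtrl points, as at DDIT3 with 0% and 0% against 97.4% and 93.2%.

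Gene groups were read against the 3.27% of tested genes called higher and the 12.6% called lower, with a median of -3.30 points over all. Of the 2536 tested genes, 1773 had a difference below 0, and 823 had an unadjusted limma p under 0.05. Of the cell cycle and replication genes, 15 of 32 were tested, 0 were called higher and 6 lower, with a median of -8.82 points and 13 below 0. E2F1 and E2F2, transcription factors of S phase entry, were at 6.62% and 10.7% against 34.6% and 28.4%, and at 1.47% and 1.58% against 15.0% and 16.2%. CCNB1, the mitotic cyclin B1, was at 0% and 0% against 14.1% and 18.7%. MCM2, MCM5 and PLK1 were the others that fell. E2F1 had a difference of -2.77 points at the floor in place of -22.9, and E2F2 one of -7.79 points at equal covered length in place of -14.1. At the −log10 q floor, 5 of these genes could be tested and limma called 0, with a median of -0.53 points. Of these 5, 0 had an unadjusted p under 0.05, against 343 of all 1340 genes tested at the floor.

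Genes of the stress responses were grouped after DDIT3, PYCR1 and CALR had been seen, so their counts are a description. Of 13 tested genes of the integrated stress response and ATF4 targets, 0 were called higher and 3 lower, with a median of -9.57 points and 12 below 0. Over all tested genes 69.9% were below 0. The third was SESN2, a stress-induced regulator of mTORC1 signalling, at 1.40% and 3.51% in shHDAC6 against 17.9% and 18.5% in shCtrl, and it did not pass at equal list length (-9.14 points, limma adjusted p = 0.448). Of 8 tested genes of the unfolded protein response, CALR alone was called and the median was -1.69 points. HSPA5, the major chaperone of the endoplasmic reticulum, stood the other way at 75.5% and 61.7% against 38.9% and 44.6%, which did not pass (limma adjusted p = 0.105). Heat shock and chaperone genes had 0 of 8 called by limma in either direction. Of these 8, 6 had an unadjusted p under 0.05, against 823 of all 2536 tested genes.

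Immediate early genes were even, with 1 of 18 higher, 2 lower and a median of -0.14 points. SRF, the factor that drives many of them, was at 7.89% and 7.66% against 23.6% and 23.8%. Its difference was -5.82 points at the floor, where it passed, in place of -15.9. At equal covered length it was -8.23 points and did not pass (limma adjusted p = 0.545). EGR1 was at 4.04% and 4.00% against 8.46% and 8.07%, and BTG2, an antiproliferative p53 target, at 21.6% and 20.9% against 14.5% and 14.3%. Of 9 tested p53 targets, 1 was higher (BTG2) and 3 lower (BAX, SESN2 and PHLDA3), with a median of -4.14 points. Among YAP/TEAD targets 3 genes could be tested. CCN1, a matricellular protein gene, fell to 0% and 17.0% in shHDAC6, against 61.1% and 62.2% in shCtrl, and its promoter peak was narrower, with a log2 difference of -1.09.

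Tubulin genes and enzymes that modify tubulin, the known sphere of HDAC6, had 0 of 11 higher and 2 lower, with a median of -12.0 points. TUBA1B was at 46.9% and 45.5% against 70.4% and 70.6%, and TUBA4A at 0% and 0% against 17.98% and 14.0%. TUBB was at 54.4% and 45.2% against 70.0% and 70.1% and did not pass (limma adjusted p = 0.0789). The TUBA1B difference was -1.05 points at the floor (limma adjusted p = 0.625) in place of -24.3. At the floor 1 of 6 tested was lower, with a median of -1.44 points. Deacetylases, acetyltransferases and readers had 1 of 8 lower, HDAC5 at 5.52% and 5.97% against 9.95% and 9.47%, which did not pass at equal covered length (limma adjusted p = 0.390). Their promoter peaks were wider at 5 of 29 genes, HDAC4, HDAC5, SIRT1, SIRT5 and KAT6A, and narrower at BRD2, a reader of acetylated histones, against 4.40% of all tested promoters called wider and 4.16% narrower. Without any single list limma called 0 of these widths.

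The transcription machinery showed both directions. Of 7 tested PolII subunit and general factor genes, TAF10, a TFIID subunit, was higher at 21.2% and 23.4% against 12.5% and 12.3%. POLR2A, which encodes Rpb1 itself, was lower at 4.81% and 4.63% against 8.51% and 7.87%, POLR2H at 24.5% and 25.1% against 48.3% and 44.8%, and ERCC2, a TFIIH helicase, at 14.4% and 15.3% against 29.0% and 28.1%. The ERCC2 difference turned to 0.757 points at equal list length and 5.98 points at equal covered length, that of POLR2A was -1.07 points at equal covered length in place of -3.47, and that of POLR2H was -1.66 points at the floor in place of -21.8. At equal covered length 1 of the 7 genes was called lower. NELFB, a subunit of the pausing factor NELF, was higher at 16.2% and 13.1% against 2.92% and 2.83%, the only call among 7 pausing and elongation genes. Mediator and Integrator genes had 0 of 6 called by limma, with 2 at an unadjusted p under 0.05, and of 4 termination genes CPSF4, a cleavage factor subunit, was lower at 8.51% and 7.43% against 15.4% and 15.6%, with -2.77 points at equal covered length in place of -7.52.

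Ribosomal protein genes, short and heavily transcribed, had 2 of 55 higher and 3 lower, with a median of -3.73 points. RPL18 was at 100% and 100% against 72.5% and 74.3%, and RPS10 at 100% and 100% against 84.5% and 88.3%. RPL31 was at 2.07% and 2.21% against 31.0% and 24.4%, with -6.25 points at the floor in place of -25.5. By rank, 2 of 72 ribosomal promoters moved up and 19 down by the rule given next, with a median of -7.51 points. Of all 12284 promoters ranked, 13.3% moved up and 13.5% down. Limma called 0 of 4 mesenchymal and invasion genes, 0 of 11 hypoxia and glycolysis genes and 0 of 4 inflammatory and NF-kB genes, with 0, 4 and 1 at an unadjusted p under 0.05. Of the receptor and growth signalling genes 1 of 7 was lower, AKT1 at 11.7% and 12.7% against 27.4% and 24.4%, with -8.02 points at equal covered length in place of -13.7.

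Ranks of the authors' fold within each list show which promoters changed places; moves up and down balance by construction. Each promoter was ranked among the 12284 common ones, and a move was counted when both shHDAC6 percentiles lay above or below both shCtrl ones and the means were at least 20 points apart. By this rule 1636 promoters (13.3%) stood higher in shHDAC6 and 1654 (13.5%) lower. PPP2R5B, a regulatory subunit of the phosphatase PP2A, moved furthest up, at the 93.7th and 93.6th percentile in shHDAC6 against the 6.22nd and 12.2nd in shCtrl. MCRS1, a subunit of chromatin complexes, was at the 94.8th and 90.2nd against the 10.9th and 5.50th. The peak behind this rank lay upstream in all 4 lists, with a fold of 10.6 and 9.99 in shHDAC6 and 9.74 and 11.3 in shCtrl, and ended at -946 and -948 bp in shHDAC6, inside the window, and at -1146 and -1148 bp in shCtrl, outside it. ZNF71 and APH1B, a gamma-secretase subunit gene, stood higher as well. NOMO3 did too, but it has near-identical copies. EPHA3, an ephrin receptor gene, moved furthest down, at the 15.7th and 13.7th percentile in shHDAC6 against the 97.6th and 89.8th in shCtrl. TRAPPC13, SUPT7L, MEIS2 and LMAN2L followed. MEIS2, a homeobox gene, was at the 7.93rd and 10.6th against the 86.7th and 80.4th, and its promoter peak was narrower at 1624 and 1602 bp against 5063 and 4992 bp. Both shHDAC6 lists held a second peak of 2577 and 2565 bp that ended at -1040 and -1030 bp, just outside the window, and the single shCtrl peak spanned the places of both. A rank is the authors' own value set within its list and carries no test.

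Open chromatin and HDAC6 were looked up at the same promoter windows. An ATAC peak was present in all 6 hairpin lists at 10.4% of lost promoters and 30% of gained ones, against 72.5% of promoters with PolII in all 4 lists, and in none of the 6 at 57.4%, 35.0% and 5.05%. An ATAC peak in all 3 shHDAC6 lists and no shCtrl list was found at 2 of 115 lost and 0 of 160 gained promoters (1.74% and 0%). The reverse was found at 2 and 3 (1.74% and 1.88%). Over all genes these shares were 0.187% and 0.197%, and over promoters with PolII in all 4 lists 0.244% and 0.204%. Of the genes whose body coverage was lower, 61.8% had an ATAC peak at the promoter in all 6 lists. Of those whose coverage was higher it was 51.8%, against 46.6% of all genes. HDAC6 itself had a peak in all 4 Ctrl profiles at 11.6% of the lower and 15.7% of the higher genes, against 8.27% of all genes and 13.2% of promoters with PolII in all 4 lists. These are descriptions over sets that differ in PolII level.

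Knockdown and inhibitor were set against each other in the 8 PolII lists, by the difference between the shHDAC6 minus shCtrl and the NextA minus Ctrl changes in body coverage. The pairs share no lists. Over 3091 genes the median of this difference was -14.6 points. In a fit of the same 8 lists the shHDAC6 minus shCtrl change alone had a median of -1.56 points. The NextA lists covered a mean of 42.6 Mb and the Ctrl lists 30.8 Mb. The median difference was -7.00 points at the −log10 q floor and -10.7 points at equal list length. Without these settings limma called 0 genes positive and 2 negative (0% and 0.0647%), and 421 genes had an unadjusted p under 0.05. The called genes were DDIT3 and LRFN4. DDIT3 was fully covered in NextA and Ctrl alike (100% in all 4 lists), against 0% and 0% in shHDAC6 and 97.4% and 93.2% in shCtrl. LRFN4, which encodes a synaptic adhesion protein, was at 100% in all 4 hairpin lists and in both NextA lists and at 0% in both Ctrl lists. Both genes were thus at the ceiling of the measure in all 4 lists of one contrast, where a change in PolII level would not show. The first NextA and first Ctrl lists carry a score that is not 10 times the −log10 p, unlike the other 6. They also lacked the 9p21 peaks that the others hold. Both marks thus lie between replicates 1 and 2 within NextA and within Ctrl, and not between those 2 groups. Whether they shape the contrast cannot be told from 2 lists a group. Leaving out any hairpin list left 0 calls in this comparison, with 224 to 281 genes at an unadjusted p under 0.05.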

How the data were processed

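The 4 PolII peak lists hold 9 columns without a header, called per sample. The deposited score is 10 times the deposited −log10 p, and the deposited fold is a linear ratio made by the authors' caller, followed by −log10 p and −log10 q. These are the authors' own values and served only to rank or filter peaks within a list. Tools listed in the submitters' processing notes, with no role given, were MACS2 2.2.7.1, Bowtie2 2.4.4, ChIPseeker 1.28.2, Trim Galore 0.6.7, deepTools 3.5.1 and SAMtools 1.13, and the build was hg38. Read depth per sample is unknown, so no counting intervals are given. The lists of 18 samples were used and those of 14 were not.

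Chromosomes 1 to 22 and X were kept. Gene starts came from RefSeq (GRCh38.p14): 15812 of 19773 protein-coding genes had a start with strand, of several the one with a peak in most of the 8 PolII lists; 2543 took the gene end with more peaks, 1418 had a peak at neither end, and 201 with tied ends were left out. Presence needed an overlap of 1 bp. Promoter width (log2 of summed peak length) and body coverage were compared with limma 3.58.1 (trend), 2 against 2 lists, with Benjamini-Hochberg adjustment over all genes tested at 0.05; the code was tested on simulated data. List totals had exact permutation tests. Presence and rank have no test.

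Members and gene lists were chosen with earlier results of these data known, and the 2 stress lists after values of this comparison were seen. Named genes were HDAC6, the 10 lost and 10 gained promoters of highest percentile (LOC and readthrough symbols passed over throughout), the 10 and 10 largest called coverage differences, 5 and 5 for width and for rank, and up to 4 members of each list; 1 gene among the largest higher coverage differences is not reported here. Promoter sequences were looked up for the first of these with a RefSeq start; the lost and gained ones found this way had only a shifted peak edge and are not shown. Alternatives were a −log10 q floor of 5, equal list length, equal covered length (added after seeing the data), windows of 3 kb, an overlap of 200 bp, joined peaks, other filters and scales, the replicate block, all 8 PolII lists in a fit, and leaving out each list.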

Additional observations from a re-analysis of the deposited data

Results flagged for a closer look

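For 2 genes the change in gene-body coverage with knockdown differed from that with the inhibitor by the interaction test (limma, 8 lists). DDIT3 had a difference of -95.3 points (adjusted p = 0.0141), with coverage of 0% and 0% in shHDAC6 against 97.4% and 93.2% in shCtrl, and of 100% in both NextA and both Ctrl lists. LRFN4 had a difference of -100 points (adjusted p = 0.0132), with 100% in both shHDAC6 and both shCtrl lists, and 100% in both NextA lists against 0% in both Ctrl lists. Each gene was at the 100% ceiling of the measure in all 4 lists of one contrast, so a change in PolII level there would not show. Neither passed without any single hairpin list.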

How the results depend on the processing

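At the −log10 q floor of 5, lost and gained promoters numbered 73 and 576, lost regions 196, lower bodies 121 and interaction calls 3 positive and 14 negative, and the shHDAC6 minus shCtrl differences in peaks (936.5), covered length (1.05 Mb) and share of bases in genes (0.381 points) reversed. At equal list length there were 75 lost promoters, 1208 lost regions, 201 lower bodies, interaction calls of 1 and 6, and a reversed median width difference of -16.0 bp. At equal covered length there were 43 lost and 281 gained promoters, 668 lost and 1351 gained regions and 149 lower bodies. The causes were not tested, beyond the shorter lists that these settings make. Ranks at least 10 points apart gave 3229 up and 3179 down. Without a filter 282 bodies were higher and 701 lower, and among bodies of at least 10 kb 30 and 183. The 8 lists in 1 fit gave 0 wider, 1 narrower, 1 higher and 12 lower.

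Leaving out a list each time gave 2396 to 3554 lost and 992 to 1671 gained regions, 23 to 59 higher and 34 to 326 lower bodies, 0 width calls and 0 interaction calls. With the replicate number as a block, limma called 0 wider, 0 narrower, 0 higher and 0 lower and 0 interactions, with 2327 widths and 698 bodies at an unadjusted p under 0.05. Same-numbered lists did not deviate together over genes (correlation 0.018 for width and 0.027 for coverage). These values cannot tell whether same-numbered lists were prepared together, which the labels do not say.

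Reversed genes were PRELID1 (-34.7 points) and DUS1L (11.4) at the floor, ULK1 (0.118 at the floor, equal list length and equal covered length), ERCC2 (0.757 at equal list length and 5.98 at equal covered length), and, in log2 width, ICAM4 (-0.17), MCRS1 (-0.0583), RPL18 (-0.0383) and TUBB (0.46) with joined peaks and MIURF (-0.0157) at 3 kb. With 2 lists a group and no read depth, small differences in weak peaks cannot be resolved.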
